A study of Mus musculus with 6 samples.

Results

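The set described here holds 34 genes of the unfolded protein response of the endoplasmic reticulum (ER), chosen by symbol from a deposited count table of 18697 genes. They were 14 chaperones and folding enzymes, 6 genes of ER-associated degradation and translocation, 8 stress sensors and transcription factors, and 6 targets of the stress factors ATF4 and CHOP. All 34 symbols were in the table, and 33 passed a filter on low counts together with 13753 genes in all. The member that did not pass was Ern2, the epithelial form of the sensor IRE1, which had 0 counts in each of the 6 libraries. A count of 0 allows up to 3 counts, which is 0.0970 to 0.211 CPM depending on the library (CPM are read counts scaled to the same effective library size, TMM-normalised).

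The libraries came from prostates of mice with experimental autoimmune prostatitis (EAP), in which immunity against prostate antigens inflames the gland. All mice of both groups carried this disease, and one group was given VUF11207, a small-molecule agonist of the chemokine receptor CXCR7, at 5 mg per kg daily for 14 days by intraperitoneal injection. The control group was given the solvent DMSO over the same period (the label gives 5 mg per kg daily for it as well), and the labels used here name neither mouse strain nor age. Each group held 3 libraries of RNA from prostate tissue, and healthy mice were not analysed here. The labels number the samples of each group 1, 2 and 3. The VUF11207 libraries 1, 2 and 3 and the vehicle libraries 2 and 3 have columns in the count table that match a sample's own file. The name of the remaining vehicle column shows the group but matches no such file. Vehicle sample 1 is the only sample without a matched column, but the sources do not state that they belong together. That column is called the unnumbered vehicle library. Sets of 3 values below are in the order unnumbered, 2 and 3 for vehicle and 1, 2 and 3 for VUF11207.

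Proteins that leave a cell by secretion fold in the ER with the help of chaperones such as BiP (Hspa5) and GRP94 (Hsp90b1), and a secretory gland such as the prostate runs this machinery at a high level. When unfolded protein builds up, the sensors PERK (Eif2ak3), IRE1 (Ern1) and ATF6 in the ER membrane start the unfolded protein response. IRE1 splices the Xbp1 mRNA, and XBP1 and ATF6 raise chaperones and degradation genes. PERK slows translation and favours ATF4, which drives amino acid synthesis genes such as Asns and, through CHOP (Ddit3), genes linked to cell death. Counts per gene do not separate spliced from unspliced Xbp1 mRNA, and say nothing of translation of the Atf4 mRNA.

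Many chaperone genes share a promoter element, the ER stress response element (ERSE), read by ATF6 and XBP1 together with NF-Y. It was searched as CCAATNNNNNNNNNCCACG on both strands of RefSeq windows (GRCm38.p6, the build mm10) that run from 250 bases before to 50 bases after a transcript start. Windows were available for 29 members, 31 windows in all, and 9 of these members had at least 1 match. Counted by window and with the members included, 39 of 32851 windows of all genes had a match (0.119%). The motif is known from such chaperone promoters, so the matches describe these genes and are no independent evidence. The 9 genes were Hspa5, Hsp90b1, Calr, Canx, Dnajc3, Pdia6 and Creld2 among 12 chaperones with a window, and Syvn1 and Derl3 among 6 degradation and translocation genes. The sequences are printed because the genes that share the element did not share 1 pattern across libraries. Each is read in the direction of its gene, with the match in capitals, up to 20 bases on either side and the genome position of what is printed.
Hspa5 (chr2:34772025-34772043, + strand): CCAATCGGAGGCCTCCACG
Hsp90b1, distal match (chr10:86705618-86705676, - strand): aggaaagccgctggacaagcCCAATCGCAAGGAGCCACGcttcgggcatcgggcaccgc
Hsp90b1, proximal match (chr10:86705513-86705571, - strand): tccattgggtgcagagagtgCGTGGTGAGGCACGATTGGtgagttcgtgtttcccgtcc
Pdia6 (chr12:17266471-17266529, + strand): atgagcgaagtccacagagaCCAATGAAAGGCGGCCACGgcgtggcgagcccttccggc
Creld2 (chr15:88819500-88819558, + strand): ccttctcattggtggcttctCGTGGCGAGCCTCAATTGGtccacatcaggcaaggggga
Canx (chr11:50325780-50325838, - strand): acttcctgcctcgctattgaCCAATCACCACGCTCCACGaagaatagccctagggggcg
Syvn1 (chr19:6046512-6046570, + strand): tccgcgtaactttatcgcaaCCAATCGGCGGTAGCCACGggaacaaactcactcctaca
Derl3 (chr10:75893222-75893280, + strand): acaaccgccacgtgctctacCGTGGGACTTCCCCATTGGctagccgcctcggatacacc
The matches of Hspa5, Pdia6 and Syvn1 begin 65, 98 and 44 bases before the RefSeq start, and Hsp90b1 has a match at 212 and another, on the opposite strand, at 107. The match of Hspa5 lies inside the gene as GENCODE draws it, so only the match is shown.

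The related element ERSE-II, searched as ATTGG and CCACG 1 base apart, was found in Dnajb11 and Herpud1 and in 0.0365% of all windows. The UPRE, searched as TGACGTGG, was in 0 of the 29 members and in 0.676% of all windows. The ATF4 element (CARE), searched as TGATGNAA, was in 3 of the 6 ATF4 and CHOP targets, Trib3, Asns and Chac1, in Herpud1, and in 3.97% of all windows. In Asns it reads TGATGAAA (chr6:7693225-7693232, - strand), begins 23 bases before the start and lies inside the gene as GENCODE draws it. The CARE match of Chac1 is shown with its flanks because Chac1 had the widest range of all members across libraries.
Chac1 (chr2:119351029-119351076, + strand): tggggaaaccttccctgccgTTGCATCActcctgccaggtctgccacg
The motifs were counted separately, in Herpud1 the ERSE-II and CARE matches do not overlap, and a match says nothing about binding in these prostates.

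Before the comparison, the libraries' make-up bears on every member. Total counts ran from 20308018 to 33368058. Genes of seminal vesicle secretion made up 66.9% of vehicle replicate 2 and 28.7% of VUF11207 replicate 1, against 0.750% to 16.3% in the other 4 libraries. The TMM factor was 0.425 in vehicle replicate 2 and 1.01 to 1.33 in the others. Compared with scaling by library totals, TMM thus raised the CPM of vehicle replicate 2 the most, and its rankings below are with TMM. The prostate secretory gene Pbsn was at 17695 CPM in the unnumbered library, at 6739 CPM in VUF11207 replicate 2, and between 623 and 2652 in the others. In bulk tissue, fewer cells of a type and less RNA per cell cannot be told apart. The prostate epithelial markers Hoxb13, Tmprss2, Krt8, Krt18, Epcam and Foxa1 were detected in all 6 libraries. The members together made up 1.60%, 0.389% and 0.884% of all vehicle counts and 0.718%, 1.18% and 0.899% of all VUF11207 counts.

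Per kilobase of exon, which allows levels of different genes to be compared, general chaperones and a translocation channel subunit stood highest, and the sensors were in the lower part of the range. Calr, the calcium-binding lectin chaperone calreticulin, had a median over 6 libraries of 357.9 CPM per kilobase. It was followed by Sec61b, a subunit of the translocation channel, at 306.5, the disulfide isomerase Pdia3 at 255.4, Hspa5 at 213.2 and Hsp90b1 at 184.8. These 5 are not well separated: Calr ran from 297.4 to 439.5, Sec61b from 208.7 to 354.4 and Hsp90b1 from 158.4 to 667.2. Atf4 had a median of 109.9 and Xbp1 one of 84.1, while the sensors Eif2ak3, Ern1 and Atf6 were at 6.16, 5.75 and 5.73. The lowest detected member was Sesn2, a stress-inducible regulator of mTORC1, at 1.72. Exon lengths come from GENCODE and need not be those used for counting.

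**Figure D1:**
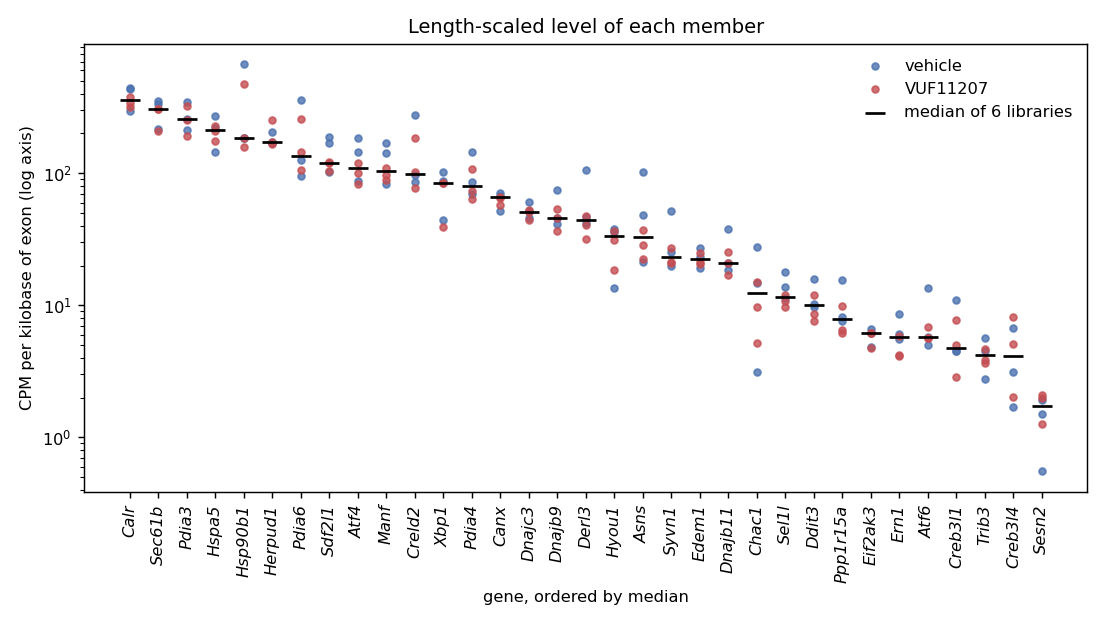
Level of each of the 33 detected members in CPM per kilobase of exon (log axis), 1 point per library, with vehicle in blue, VUF11207 in red and a black line at the median of 6 libraries. Calr has the highest median, 357.9, and Sesn2 the lowest, 1.72, and the colours overlap for every gene.

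Between VUF11207 and vehicle, 0 of the 33 tested members passed an adjusted p of 0.05 in edgeR's quasi-likelihood test, as did 0 of all 13753 genes tested (0%). Before adjustment 0 members had an edgeR p under 0.05, against 196 genes in all (1.43%). The groups overlapped for each of the 33 members, while 5.57% of all genes had groups that did not overlap, 3.05% higher and 2.52% lower with VUF11207. The smallest unadjusted edgeR p of a member was 0.0824, for Ern1, with an adjusted p of 0.9999 in edgeR. DESeq2 also called 0 members, with 0 at an unadjusted p under 0.05. The median standard error over the members was 0.35 on the log2 scale, beside 0.36 over all genes.

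The signs leaned one way. Of the 33 fitted log2 fold changes (VUF11207 minus vehicle) 30 were below 0, with a median of -0.29, beside 55.3% of all genes and a median of -0.04. With libraries scaled by their totals alone in place of TMM, 17 were below 0 with a median of -0.0432. Of all genes 33.3% were then below 0, and their median moved to 0.14. Relative to the median of all genes, 28 members lay lower with TMM and 26 with totals. With TMM the highest value of 16 members lay in the unnumbered vehicle library and that of 12 in vehicle replicate 2. Over all genes those libraries held the highest value of 28.2% and 20.6%. The members' share of raw counts was lowest in vehicle replicate 2, at 0.389%, so the number for that library depends on the scaling. Without the unnumbered vehicle library 20 members were below 0 (50% of all genes), and without vehicle replicate 2 the number was 21 (52.5%). It was 27 without vehicle replicate 3, 25 without VUF11207 replicate 1 or 2, and 32 without VUF11207 replicate 3. The shares of all genes there ran from 52.2% to 55%. No member passed in any of these cases, and a common shift of the members was not tested.

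The vehicle libraries also differed more among themselves. The SD of log2 CPM was larger in vehicle than with VUF11207 for 30 of 33 members (90.9%) and for 69.9% of all genes, with medians over the members of 0.546 and 0.293.

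**Figure D2:**
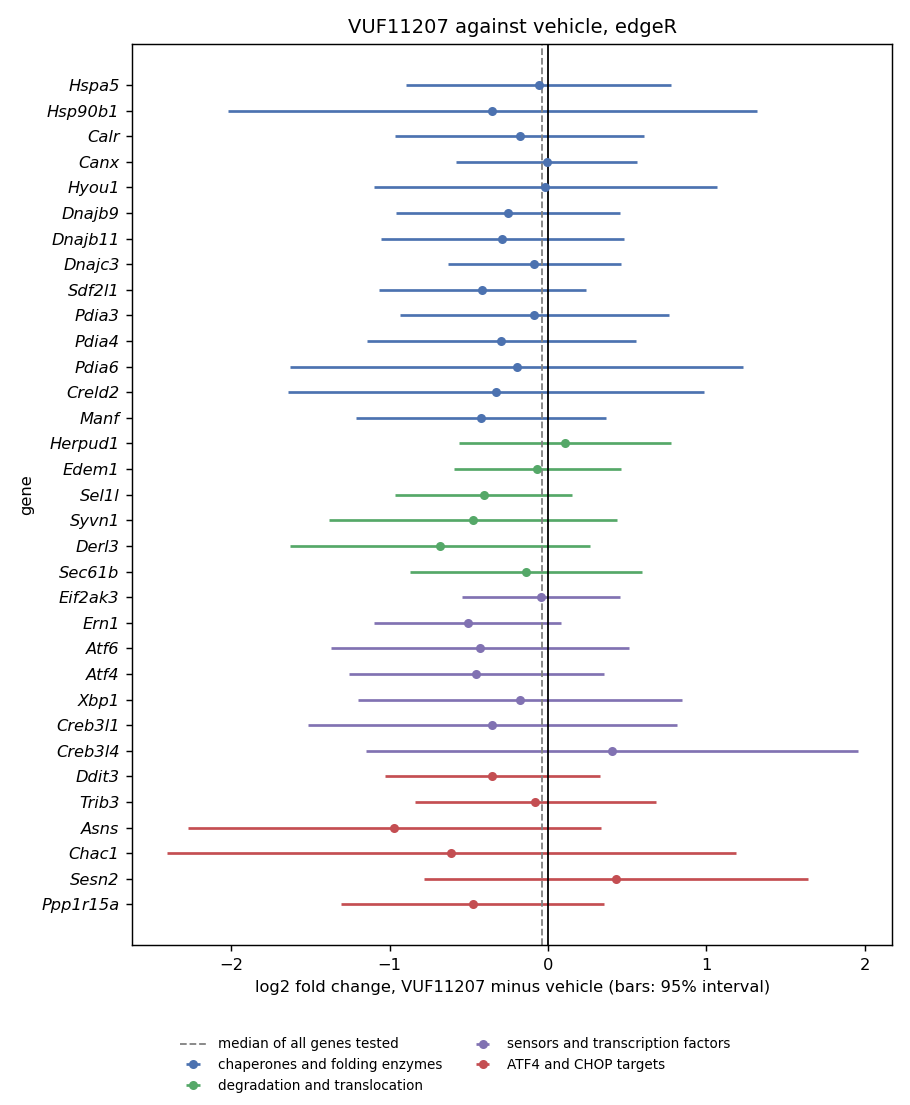
Fitted log2 fold change of each tested member (points; VUF11207 minus vehicle, edgeR) with its 95% interval, coloured by role, beside a dashed line at the median of all genes tested. Of the 33 points 30 lie below 0, and every interval includes 0.

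The chaperones and folding enzymes had 14 of 14 values below 0 and a median of -0.22 (log2 fold change), with 0 past the threshold (0% of all genes). With totals scaling their median was 0.0693. Hspa5, the ER Hsp70 BiP, was at 612, 1153 and 926 CPM in vehicle and at 877, 746 and 960 CPM with VUF11207. All VUF11207 values lay within the range of vehicle, and the log2 fold change was -0.06 ± 0.35 (SE). Hsp90b1, the ER Hsp90 GRP94, was at 2690, 740 and 749 CPM in vehicle and 639, 1897 and 741 CPM with VUF11207. Each group thus held 1 library far above the other two, and the log2 fold change of -0.35 ± 0.70 turned to 0.56 without the unnumbered vehicle library and to -1.01 without VUF11207 replicate 2.

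The 2 libraries with high Hsp90b1 were those with high Pbsn, and several folding genes had the same 2 highest libraries. Pdia6, a disulfide isomerase, was at 1339, 476 and 354 CPM in vehicle and 394, 957 and 540 CPM with VUF11207. Creld2, a secreted ER stress-inducible folding factor, was at 377, 117 and 132 CPM in vehicle and 106, 254 and 138 CPM with VUF11207. The log2 fold changes were -0.20 ± 0.60 for Pdia6 and -0.33 ± 0.55 for Creld2 (SE), and both turned positive without the unnumbered vehicle library, at 0.60 and 0.42. Pdia4 (345, 168 and 206 against 176, 257 and 153 CPM) and Pdia3 (1094, 806 and 667 against 603, 1015 and 797 CPM), also disulfide isomerases, had their highest values in the same libraries. For Pdia6 the neighbouring gene Atp6v1c2, which overlaps 1.34% of its exon bases, was at 798, 30.9 and 51.5 CPM in vehicle and 33.3, 281 and 124 CPM with VUF11207. The counting strand is not given, so reads in the overlap cannot be told apart, and their part in the values of Pdia6 was not tested. For Hsp90b1 the overlap with other annotated genes came to 15.7% of exon bases, and of the other members only Manf (9.25%), Eif2ak3 (8.05%) and Ddit3 (4.73%) shared more than 2%.

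Other chaperones had their lowest values in those same libraries. Hyou1, the ER Hsp110 that exchanges nucleotides on BiP, was at 97.4, 260 and 271 CPM in vehicle and 264, 133 and 225 CPM with VUF11207, a log2 fold change of -0.016 ± 0.45 (SE). Canx, the lectin chaperone calnexin, was at 242, 330 and 318 against 311, 269 and 305 CPM. The BiP co-chaperones Dnajb9 (105, 189 and 118 against 116, 92.3 and 138 CPM) and Dnajb11 (60.4, 123 and 67.4 against 82.1, 55 and 67.9 CPM) were lowest there too.

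A ratio of counts within a library is free of scaling between libraries, and those given here were highest in the same 2 libraries. Counts of Hsp90b1 over Hspa5 were 4.40, 0.642 and 0.809 in vehicle and 0.728, 2.54 and 0.772 with VUF11207. Creld2 over Hyou1 was 3.87, 0.449 and 0.488 in vehicle and 0.404, 1.92 and 0.616 with VUF11207. Both genes of the first ratio carry the ERSE printed above, and they differed in opposite ways between libraries. This pattern is not particular to the members: 9 of 33 (27.3%) had these as their 2 highest libraries and 9 (27.3%) as their 2 lowest, beside 20.1% and 17.7% of all genes. The comparison of libraries was made after their values were seen and has no test.

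**Figure D3:**
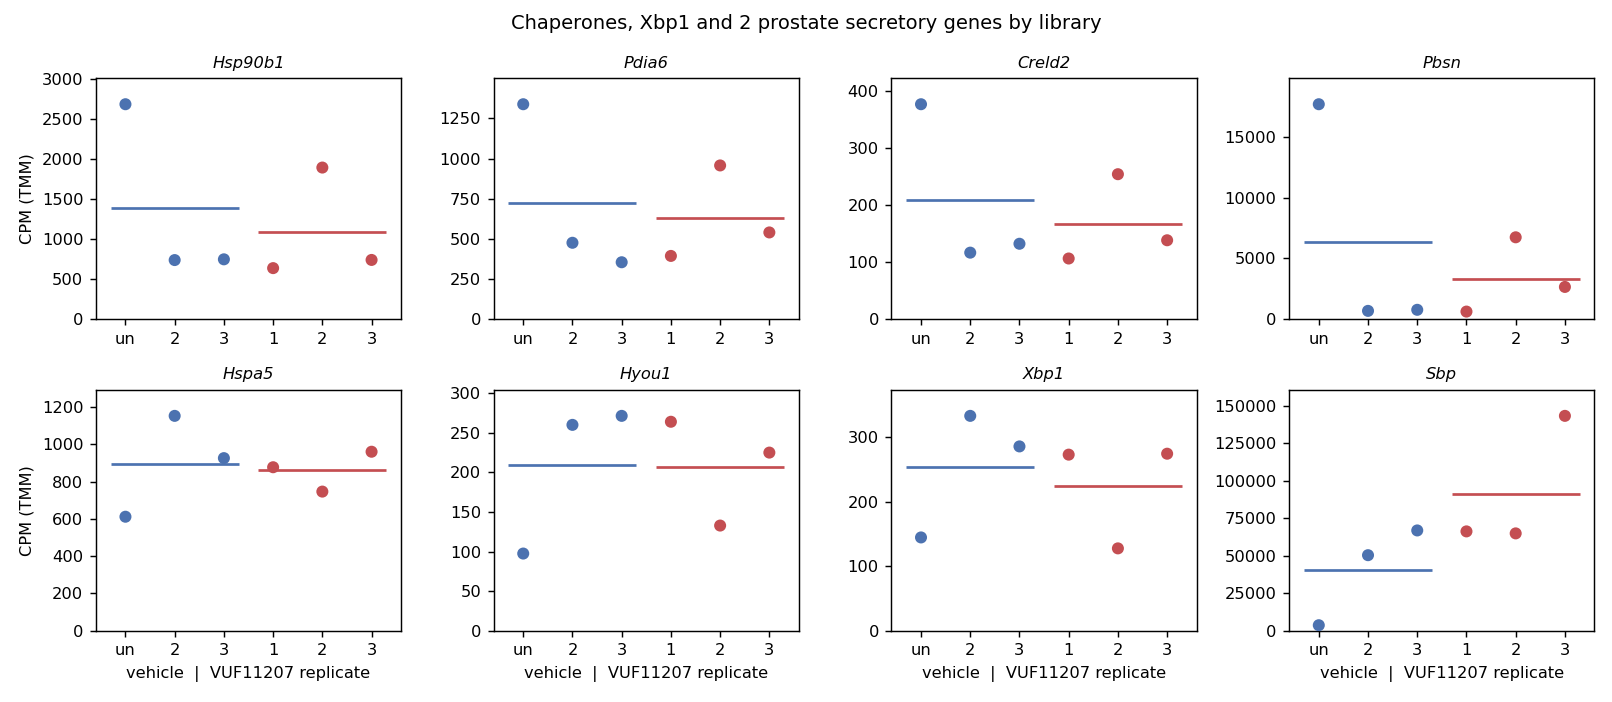
CPM of 3 folding genes (Hsp90b1, Pdia6, Creld2), of Hspa5, Hyou1 and Xbp1, and of the prostate secretory genes Pbsn and Sbp in each library (points; blue vehicle, red VUF11207; un is the unnumbered library), with group means as lines. The upper 3 folding genes and Pbsn peak in the unnumbered vehicle library and VUF11207 replicate 2, where Hyou1 and Xbp1 have their lowest values.

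Of the remaining folding genes, Calr and Dnajc3 had narrow ranges. Calr was at 1255, 1266 and 856 CPM in vehicle and 983, 1079 and 921 CPM with VUF11207, a log2 fold change of -0.18 ± 0.33 (SE). Dnajc3, the BiP co-chaperone p58IPK, ran from 228 to 309 CPM over both groups, the narrowest range of the members at 1.35-fold. Manf, a secreted ER stress-inducible factor, was at 600, 504 and 291 CPM in vehicle and 313, 386 and 342 CPM with VUF11207. Sdf2l1, a partner of the BiP co-chaperones, was at 207, 187 and 114 CPM in vehicle and 134, 133 and 114 CPM with VUF11207. For Manf and Sdf2l1 the higher vehicle mean rests on the unnumbered library and replicate 2, and their log2 fold changes were -0.42 ± 0.33 and -0.41 ± 0.27 (SE).

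Of the degradation and translocation genes 5 of 6 were below 0, with a median of -0.27. Derl3, a derlin that helps to draw misfolded proteins out of the ER and is typical of secretory cells, was at 210, 83.0 and 92.2 CPM in vehicle and 81.4, 95.1 and 63.6 CPM with VUF11207. Its fitted difference of -0.68 ± 0.40 (log2, SE) became -0.13 without the unnumbered vehicle library, which held the highest value. Syvn1, the ubiquitin ligase HRD1, had the same shape, at 250, 96.9 and 123 CPM against 102, 103 and 133 CPM, and its log2 fold change of -0.47 ± 0.38 turned to 0.0410 without that library. Sel1l, the partner of HRD1, was at 152, 118 and 96.6 CPM in vehicle and 103, 91.6 and 82.4 CPM with VUF11207, a log2 fold change of -0.41 ± 0.23, or -0.22 without that library.

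The other degradation genes differed little. Herpud1, an ER stress-inducible scaffold of HRD1, was at 480, 398 and 400 CPM in vehicle and 389, 404 and 586 CPM with VUF11207, with the only positive value of the group at 0.11 ± 0.28. Edem1, a lectin that directs glycoproteins to degradation, ran from 124 to 176 CPM in vehicle and from 132 to 160 CPM with VUF11207. Sec61b ran from 276 to 450 CPM and from 265 to 392 CPM. Its log2 fold change was -0.14 ± 0.31.

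Derl3 and Creld2 are also abundant in plasma cells, and markers of those cells varied between the libraries as well. The plasma cell markers summed to 38.1, 21.5 and 80.6 CPM in vehicle and 29.3, 200 and 30.9 CPM with VUF11207, and 8 of 9 were in the table, of which 7 were tested. Tnfrsf17 and Pou2af1 were at 0 in at least 1 library. The unnumbered vehicle library, with the highest Derl3, had 18.6 CPM of the antibody joining chain gene Jchain, against 161 CPM in VUF11207 replicate 2, where Derl3 was at 95.1. VUF11207 replicate 2 had the highest plasma cell sum and the next highest Derl3 and Creld2 after the unnumbered vehicle library. The part of plasma cells in these values was not tested.

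Of the sensors, Ern1 had the smallest p and Eif2ak3 the smallest difference. Ern1, on chr11:106394650-106487852 of mm10, was at 49.8, 70.0 and 45.8 CPM in vehicle and 48.3, 33.9 and 34.4 CPM with VUF11207. Only VUF11207 replicate 1 reached into the vehicle range, and the log2 fold change was -0.51 ± 0.25 (SE) with a 95% interval from -1.10 to 0.0854, and -0.29 without vehicle replicate 2. Eif2ak3 was at 29.0, 40.2 and 37.1 CPM in vehicle and 37.2, 28.6 and 37.3 CPM with VUF11207, a log2 fold change of -0.04 ± 0.21. Atf6 was at 126, 53.1 and 46.5 CPM in vehicle and 52.0, 62.9 and 52.7 CPM with VUF11207. Its value of -0.43 ± 0.40 turned to 0.17 without the unnumbered vehicle library.

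Among the transcription factors, Xbp1 and Atf4 differed in their order across libraries. Xbp1 lies on chr11:5520659-5525893 and Atf4 on chr15:80255184-80257541 (mm10). Xbp1 was at 144, 333 and 285 CPM in vehicle and 273, 128 and 274 CPM with VUF11207, so the same 2 libraries that were high in Hsp90b1 were low in Xbp1. Atf4 was at 434, 340 and 204 CPM in vehicle and 197, 282 and 237 CPM with VUF11207. Counts of Atf4 over Xbp1 were 3.0, 1.02 and 0.716 in vehicle and 0.722, 2.21 and 0.864 with VUF11207. The log2 fold changes were -0.18 ± 0.43 for Xbp1 and -0.45 ± 0.34 for Atf4 (SE). Without the unnumbered vehicle library that of Atf4 was -0.19 and that of Xbp1 -0.46, and without VUF11207 replicate 2 that of Xbp1 was 0.11.

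The ER membrane factors of the CREB3 family were low and differed in their order across libraries. Creb3l1, or OASIS, a factor of secretory and matrix-producing cells, was at 11.7, 11.8 and 28.4 CPM in vehicle and 20.1, 13.1 and 7.51 CPM with VUF11207. Creb3l4, a family member known for its expression in prostate, was at 2.85, 5.28 and 11.2 CPM in vehicle and 8.52, 3.42 and 13.7 CPM with VUF11207. Its fitted difference of 0.41 ± 0.65 (log2, SE) became -0.11 without VUF11207 replicate 3. Creb3l4 was lowest in the libraries with most Pbsn. The group as a whole had 6 of 7 tested members below 0 and a median of -0.35.

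**Figure D4:**
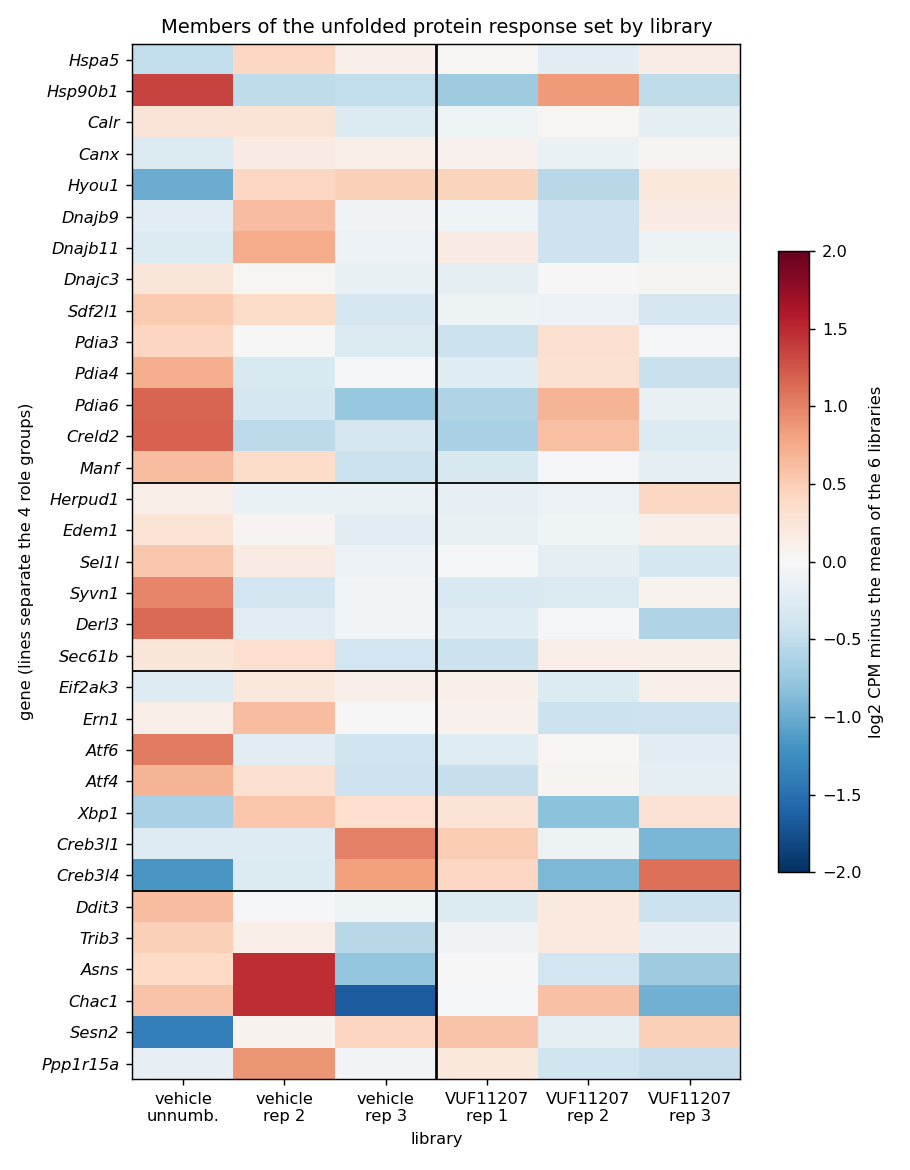
Log2 CPM of the 33 detected members minus the mean of the 6 libraries (red above, blue below), with libraries in columns, vehicle left of the thick line, and thin lines between the 4 role groups. On this TMM scale the unnumbered vehicle library holds the highest value of 16 members and vehicle replicate 2 that of 12. VUF11207 replicate 2 shares its high Hsp90b1 and low Hyou1 and Xbp1 with the unnumbered vehicle library.

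The ATF4 and CHOP targets had 5 of 6 values below 0 and a median of -0.41 (log2 fold change). Asns, asparagine synthetase (chr6:7675169-7693254 of mm10), was at 133, 281 and 58.4 CPM in vehicle and 102, 77.7 and 61.5 CPM with VUF11207. Its value of -0.97 ± 0.55 (SE) was the lowest of the 33 members, and it was -0.24 without vehicle replicate 2. Chac1, a glutathione-degrading enzyme, was at 24.3, 45.5 and 5.14 CPM in vehicle and 16, 24.6 and 8.42 CPM with VUF11207. The 8.86-fold range of Chac1 over the libraries compares with a group difference of -0.61 ± 0.75, which turned to 0.16 without vehicle replicate 2.

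Ppp1r15a (GADD34), which restores translation by directing a phosphatase to eIF2, was at 22.2, 45.9 and 24.0 CPM in vehicle and 28.9, 19.0 and 18.2 CPM with VUF11207. Like Asns and Chac1 it was highest in vehicle replicate 2, the library with 66.9% seminal vesicle counts. This ranking depends on TMM, whose factor was 0.425 for that library and 1.01 to 1.33 for the others. On library totals alone none of these genes was highest there. The log2 fold change of Ppp1r15a was -0.48 ± 0.35, and -0.0577 without vehicle replicate 2. Whether the seminal vesicle content accounts for these values was not tested.

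Ddit3, which encodes CHOP, and Trib3, a pseudokinase induced by CHOP and ATF4, had another order. Ddit3 was at 27.3, 17.4 and 16.8 CPM in vehicle and 14.7, 20.3 and 13.1 CPM with VUF11207, highest in the unnumbered vehicle library. Trib3 was at 12.0, 9.51 and 5.88 CPM in vehicle and 8.25, 9.90 and 7.78 CPM with VUF11207. Their log2 fold changes were -0.35 ± 0.29 and -0.08 ± 0.32. That of Ddit3 was -0.089 without the unnumbered vehicle library and -0.56 without VUF11207 replicate 2. Sesn2, at 1.92, 5.21 and 6.72 CPM in vehicle and 7.34, 4.36 and 6.93 CPM with VUF11207, had the opposite sign at 0.43 ± 0.51 and its lowest value in the library with the highest Ddit3. The 6 targets thus did not share 1 order over the libraries.

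**Figure D5:**
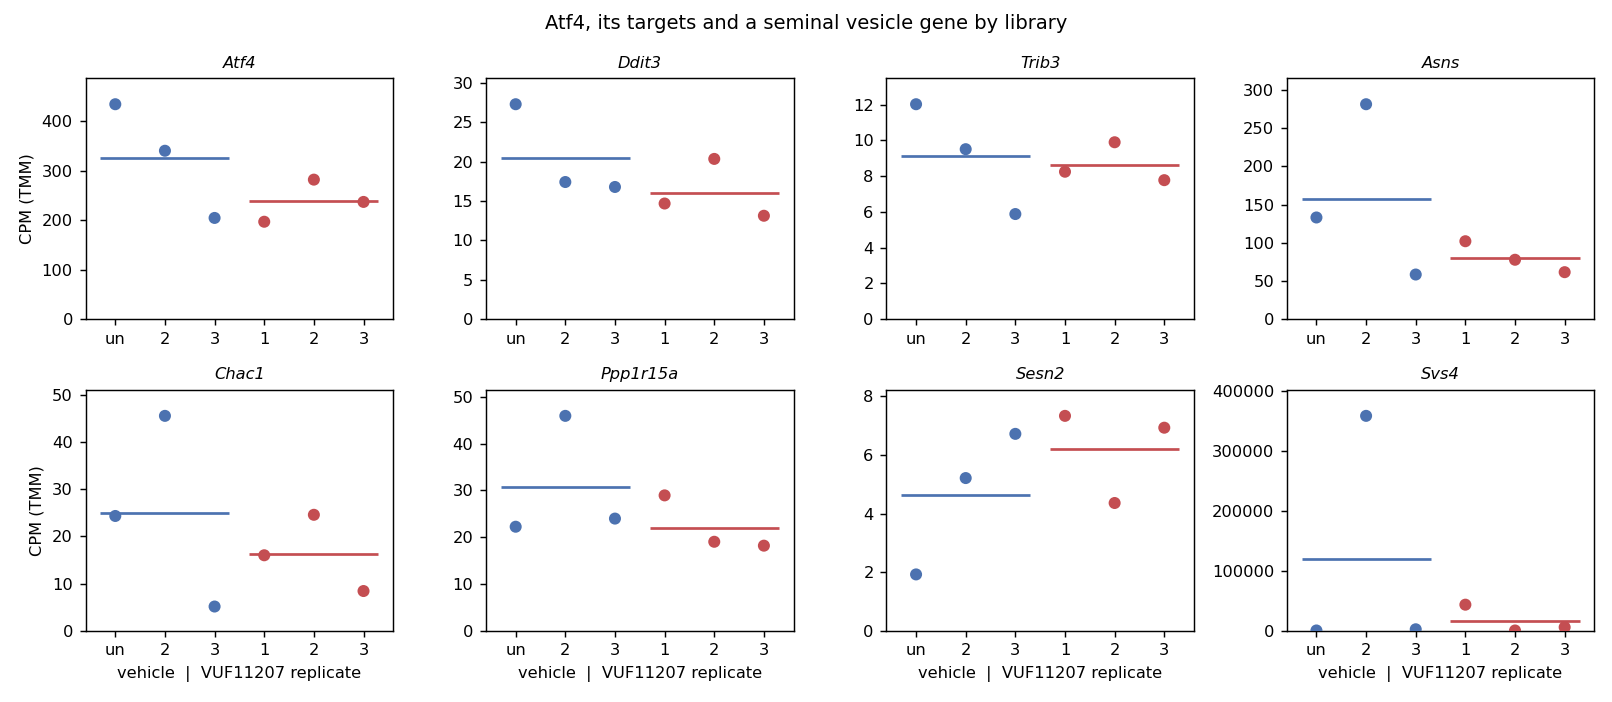
CPM of Atf4, of the 6 ATF4 and CHOP targets and of the seminal vesicle gene Svs4 in each library (points; blue vehicle, red VUF11207; un is the unnumbered library), with group means as lines. On this TMM scale Asns, Chac1 and Ppp1r15a are highest in vehicle replicate 2, as is Svs4, while Atf4, Ddit3 and Trib3 are highest in the unnumbered vehicle library.

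The summed levels of the role groups follow the libraries already named. The chaperones summed to 9333, 6581 and 5306 CPM in vehicle and to 5227, 7538 and 5713 CPM with VUF11207. The ATF4 and CHOP targets summed to 221, 405 and 117 CPM in vehicle and 177, 156 and 116 CPM with VUF11207. With TMM the chaperone sum was thus highest in the unnumbered vehicle library and the target sum in vehicle replicate 2. On library totals alone the target sum too was highest in the unnumbered vehicle library. In both sums the VUF11207 libraries overlapped vehicle, as they did in the sum of degradation and translocation genes. The sensors and transcription factors summed to 797, 853 and 658.5 CPM in vehicle and 635, 551 and 656 CPM with VUF11207. With TMM the groups did not overlap in that sum, by a narrow margin. On library totals alone they did overlap, with vehicle replicate 2 the lowest library. The sums were not tested.

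Other genes of the same pathways were read from 8 lists, and 0 of their genes passed the threshold in edgeR. Further ATF4 and integrated stress targets had 29 of 35 tested genes below 0 and a median of -0.50 (log2 fold change). The lowest were Aldh1l2, a mitochondrial folate enzyme, at -1.35 ± 0.75 (SE) and Stc2, a secreted glycoprotein, at -1.24 ± 0.59. The highest were Nupr1, a stress-induced chromatin protein, at 0.79 ± 0.92 and Slc7a11, the cystine transporter, at 0.67 ± 0.72. The list's mean level relative to the 6 libraries was 0.10, 0.58 and -0.22 in vehicle and 0.04, -0.09 and -0.39 with VUF11207 (log2). With TMM it was highest again in vehicle replicate 2. Psat1 of this list, a serine synthesis enzyme chosen after its values were seen, was at 26.6, 186 and 43.5 CPM in vehicle and 72.7, 26.8 and 14.7 CPM with VUF11207.

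Other ER folding enzymes had 20 of 28 tested genes below 0 and a median of -0.18. Their lowest values were those of the thiol oxidases Qsox1, at -1.80 ± 1.29 (SE), and Ero1b, at -1.15 ± 1.18, and their highest those of Ero1a at 0.12 ± 0.32 and the prolyl isomerase Fkbp14 at 0.09 ± 0.41. Both genes were highest in vehicle replicate 2, where Qsox1 was at 1764 CPM and Ero1b at 244, against at most 418 and 82.3 elsewhere. Fkbp11 and Agr2, a prolyl isomerase and a disulfide isomerase of secretory epithelia chosen after their values were seen, had the same 2 highest libraries as Hsp90b1. Fkbp11 was at 436, 60.0 and 55.1 CPM in vehicle and 49.6, 188 and 72.2 CPM with VUF11207. Agr2 was at 1559, 199 and 395 against 328, 1068 and 841 CPM.

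The list of the translocon, signal peptidase and oligosaccharyltransferase had 29 of 32 genes below 0 and a median of -0.17. Its lowest members were Stt3b, a catalytic subunit of oligosaccharyltransferase, at -0.81 ± 0.67 (SE), and Ssr4, of the translocon-associated complex, at -0.59 ± 0.41. Tram1, at 0.16 ± 0.48, and Srp68, at 0.08 ± 0.22, were highest. Stt3b was at 890 CPM in vehicle replicate 2 and at most 362 CPM elsewhere. With TMM the mean level of this list in vehicle replicate 2 was 0.48 (log2) above the mean of the libraries, the highest of the 6.

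The next 3 lists had medians near that of all genes. ER-associated degradation outside the members had 14 of 23 genes below 0 and a median of -0.04, from Selenok at -0.39 ± 0.46 and Ube2j2 at -0.36 ± 0.25 to Ufd1 at 0.26 ± 0.21 and Sel1l3 at 0.16 ± 0.50 (SE). COPII and ER-Golgi transport had 14 of 26 below 0 and a median of -0.0054, from Sec16b at -1.41 ± 0.90 and Kdelr2 at -0.43 ± 0.26 to Sec23a at 0.27 ± 0.27 and Sec31a at 0.24 ± 0.26. Cytosolic heat shock genes, which answer mainly to HSF1 and not to the ER sensors, had 6 of 13 below 0 and a median of 0.0045. There Hsph1 was at -0.38 ± 0.22, Hspa8 at -0.35 ± 0.27, Hspb1 at 0.42 ± 0.25 and Bag3 at 0.14 ± 0.22. The groups did not overlap for Hspa8, the constitutive cytosolic Hsp70, at 637, 779 and 776 CPM in vehicle and 511, 595 and 612 CPM with VUF11207. It did not pass the edgeR test, and 2.52% of all genes were lower without overlap. The same held for 1 gene of the list of ER-associated degradation outside the members and 1 of the translocon list.

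The list of the kinases, subunits and phosphatase of eIF2 and related factors, which includes the member Dnajc3, had 9 of 14 genes below 0 and a median of -0.12. The lowest were Nck1 at -0.42 ± 0.26 and Eif2s3x at -0.38 ± 0.30 (SE), and the highest Eif2b1 at 0.28 ± 0.39 and Eif2ak2, the interferon-induced kinase PKR, at 0.25 ± 0.18. The list of other ER membrane transcription factors and proteases, which also holds genes of other kinds such as Bok, Yipf6 and Bhlha15, had 5 of 10 below 0. Its median was -0.0083, and its values ran from Bok at -0.14 ± 0.51 and Nfe2l1 at -0.13 ± 0.22 to Creb3l2 at 0.24 ± 0.49 and Yipf6 at 0.16 ± 0.27. Of that list Bhlha15 (MIST1), a factor of secretory cells known as a target of XBP1 and chosen after its values were seen, was at 111, 338 and 380 CPM in vehicle and 312, 164 and 432 CPM with VUF11207, lowest in the 2 libraries lowest in Xbp1.

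Transcripts of secreted proteins differed between the libraries as well, in both directions. The 11 genes of seminal vesicle secretion all had log2 fold changes below 0, with a median of -2.82 and 0 at an unadjusted edgeR p under 0.05, and the shares of this list are given above. Of 10 genes of prostate secretion 8 had a log2 fold change above 0, with a median of 1.32, and 4 had an unadjusted edgeR p under 0.05 without passing adjustment. The groups did not overlap for 5 of them (Apof, Defb50, Msmb, Spink5 and Wfdc3), each higher with VUF11207, beside 3.05% of all genes. The list summed to 39871, 70720 and 79333 CPM in vehicle and 84757, 110360 and 196280 CPM with VUF11207. The chaperone sum had another order, highest in the vehicle library with the lowest sums of both lists. The Xbp1 level was lowest in VUF11207 replicate 2 and next lowest in that vehicle library.

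Markers of other cell types also varied within the groups, and their part in the members' values was not tested. Skeletal muscle markers summed to 896, 445 and 5799 CPM in vehicle and 6183, 1276 and 654 CPM with VUF11207, and smooth muscle markers to 15610, 4884 and 4461 against 8689, 19666 and 4207 CPM. Macrophage and monocyte markers were at 394, 140 and 205 CPM in vehicle and 120, 254 and 113 CPM with VUF11207, with 10 of 10 log2 fold changes below 0 and 0 past the threshold in edgeR. Red blood cell markers summed to 1844, 187 and 721 CPM in vehicle and 109, 499 and 81.1 CPM with VUF11207, with 5 of 5 log2 fold changes below 0, a median of -2.16 and 2 at an unadjusted edgeR p under 0.05. Endothelial markers summed to 54.6, 33.6 and 23.8 against 32.9, 19.3 and 20.8 CPM, also with 5 of 5 below 0 and a median of -0.55. T cell markers summed to 19.2, 5.64 and 10.6 against 5.95, 22.1 and 6.19 CPM. Macrophage, T cell and smooth muscle markers had their highest sums in the unnumbered vehicle library and VUF11207 replicate 2, the libraries with most Hsp90b1 and least Xbp1. Those of skeletal muscle, red blood cells, endothelium and plasma cells did not have these as their 2 highest libraries.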

How the data were processed

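Per the labels' protocols, prostate RNA was isolated in TRIzol and sequenced from VAHTS Universal V6 libraries. The deposited table holds the authors' raw read counts per gene symbol. The submitters' processing notes list HISAT2, HTSeq, fastp and the build mm10. Versions, annotation, strand setting and the handling of shared reads are not stated in the sources used here. The 5 libraries with a file of their own had counts identical to the table, and the remaining vehicle column was used without a replicate number. Since the labels tie no library to a mouse, p-values measure only the spread between these samples.

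Counts were filtered with filterByExpr, scaled by TMM and compared by the quasi-likelihood test of edgeR 4.0.16 with robust dispersions, two-sided, with Benjamini-Hochberg adjustment over all 13753 genes, in R 4.3.3. The threshold was 0.05. Each standard error is the fold change over the root of its F value. Exact permutation of 3 against 3 libraries cannot give a p below 0.1 and was not used. The members and lists were chosen with earlier results of these data known, so lists are described by counts and medians without a test. All members were named, and of each other list the 2 highest and 2 lowest fold changes. Of 333 list entries 322 matched by symbol and 7 by synonym. Alternatives were DESeq2 1.42.0, limma 3.58.1, other scaling and filters, a replicate block and leaving out libraries. Positions and lengths are from GENCODE M21, and promoters from RefSeq, by Python 3.11.15. Results of some marker genes are not reported here.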

Additional observations from a re-analysis of the deposited data

How the results depend on the processing

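With 3 libraries a group, the biological coefficient of variation was 51.4%. No member passed an adjusted p of 0.05 under any alternative run. Over all genes, edgeR with TMM called 0, DESeq2 4, edgeR on library totals alone 3 and limma-voom 0. The lowest adjusted p of a member ran from 0.81 to 1 over the alternatives. Without vehicle replicate 3, Asns and Sdf2l1 had unadjusted edgeR p of 0.016 and 0.032, with 685 of 14126 genes under 0.05. With the replicate block over numbered libraries Ppp1r15a had an unadjusted edgeR p of 0.047, with 834 of 13770 genes under 0.05. Log2 fold changes of the members that changed sign follow, and the cause was not tested. With limma-voom these were Hyou1 at 0.044 and Trib3 at 0.013, and with sample weights Hsp90b1 at 0.039, Pdia6 at 0.21, Creld2 at 0.046, Edem1 at 0.016, Trib3 at 0.17 and Chac1 at 0.14. With totals alone they were Hspa5 at 0.25, Calr at 0.053, Canx at 0.22, Hyou1 at 0.26, Dnajb9 at 0.091, Dnajb11 at 0.086, Dnajc3 at 0.090, Pdia3 at 0.086, Edem1 at 0.11, Sec61b at 0.13, Eif2ak3 at 0.19, Xbp1 at 0.12 and Trib3 at 0.11, and the median of the chaperones was 0.069. Without the low count filter the sign changed for Canx at 0.0052, and without the 50 most abundant genes for Canx at 0.021 and Hyou1 at 0.0076. Relative log expression factors and DESeq2 changed no sign.

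Among the libraries matched to a sample, the replicate numbers 2 and 3 occur in both groups. Same-numbered libraries deviated from their group means with correlations of -0.33 and 0.052 across genes, and libraries of unlike number with -0.53 and 0.16. Unlike numbers gave values as large, so these correlations cannot show whether same-numbered libraries are paired or share a batch. With a replicate block over these 4 libraries 21 of 33 values were below 0 and the median of the degradation and translocation genes was 0.12. The signs that changed under the block were Hsp90b1 at 0.68, Dnajc3 at 0.11, Pdia3 at 0.31, Pdia4 at 0.10, Pdia6 at 0.82, Creld2 at 0.61, Edem1 at 0.13, Syvn1 at 0.12, Sec61b at 0.16, Atf6 at 0.22, Creb3l4 at -0.14, Trib3 at 0.24 and Sesn2 at -0.092. The column names of the count table carry the numbers 2, 5 and 6 in both groups, with correlations of -0.59, -0.33 and 0.052. For unlike column numbers they ran from -0.53 to 0.68. A replicate block over the column numbers was added after seeing the data. It called 0 genes, 28 of 33 members were below 0, and the sign changed for Canx at 0.0022 and Hyou1 at 0.047.

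Leaving out each library in turn, the median ran from -0.37 to -0.094 for the chaperones, from -0.43 to -0.0092 for degradation and translocation, from -0.34 to -0.082 for the sensors and transcription factors, and from -0.55 to -0.048 for the ATF4 and CHOP targets. Members whose sign changed were Hspa5 -0.27 to 0.17, Hsp90b1 -1.01 to 0.56, Canx -0.13 to 0.086, Hyou1 -0.36 to 0.22, Dnajb9 -0.41 to 0.062, Dnajb11 -0.47 to 0.11, Dnajc3 -0.17 to 0.023, Pdia3 -0.29 to 0.13, Pdia4 -0.54 to 0.063, Pdia6 -0.63 to 0.60, Creld2 -0.77 to 0.42, Herpud1 -0.10 to 0.25, Edem1 -0.18 to 0.064, Syvn1 -0.71 to 0.041, Sec61b -0.33 to 0.053, Eif2ak3 -0.17 to 0.076, Atf6 -0.67 to 0.17, Xbp1 -0.46 to 0.11, Creb3l1 -0.73 to 0.21, Creb3l4 -0.11 to 1.08, Trib3 -0.31 to 0.17 and Chac1 -1.09 to 0.16. For the rest the ranges were Calr -0.34 to -0.075, Sdf2l1 -0.63 to -0.24, Manf -0.66 to -0.19, Sel1l -0.54 to -0.22, Derl3 -0.90 to -0.13, Ern1 -0.67 to -0.29, Atf4 -0.69 to -0.19, Ddit3 -0.56 to -0.089, Asns -1.36 to -0.24, Sesn2 0.057 to 0.81 and Ppp1r15a -0.70 to -0.058. Another pair of alternatives was chosen after seeing the data. Without the libraries richest in seminal vesicle counts (vehicle replicate 2 and VUF11207 replicate 1) the sign changed for Hspa5 at 0.17, Canx at 0.057, Dnajb9 at 0.068, Pdia3 at 0.067, Edem1 at 0.019, Sec61b at 0.18, Eif2ak3 at 0.016, Trib3 at 0.0086 and Chac1 at 0.19. Without those highest in Pbsn (the unnumbered vehicle library and VUF11207 replicate 2) it changed for Pdia6 at 0.17, Edem1 at 0.091, Syvn1 at 0.099, Atf6 at 0.072 and Trib3 at 0.063.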
